A study of Mus musculus with 7 samples.

Results

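The genes described here encode the subunits of the glutamate and GABA receptors of the mouse brain. They were taken from the count table by name, as the protein-coding genes of the Gria, Grik, Grin, Grm, Gabr and Gabbr families, and 45 of its 55536 genes belong to them. Of these, 24 encode glutamate receptors and 21 encode GABA receptors. The rule by name used no measured value, but it was chosen with earlier results of these data known. RNA was measured by stranded, ribosomal-RNA-depleted sequencing of brain samples from untreated C57BL/6 mice, labelled as littermates of postnatal day 0. The 3 Setd2SRI/wt animals (1 male and 2 females) were heterozygous, with a wild-type copy of Setd2 and a copy carrying R2483H, a change in the SRI domain, and the 4 wild-type animals (2 males and 2 females) carried no such allele. Each library came from 1 animal. Litters are not labelled, and the p-values reflect variation among these 7 libraries, which may include litter differences.

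Glutamate is the main excitatory transmitter of the brain. AMPA, kainate and NMDA receptors are cation channels built from several subunits, and metabotropic glutamate receptors act through G proteins. GABA is the main inhibitory transmitter of the adult brain: GABA-A receptors are chloride channels whose subunits are most often drawn from the alpha, beta and gamma classes, and GABA-B receptors are G-protein-coupled dimers of the Gabbr1 and Gabbr2 products. Subunit use changes as the rodent forebrain matures, with Grin2a joining Grin2b in NMDA receptors over the first postnatal weeks.

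Setd2, the histone methyltransferase whose SRI domain binds RNA polymerase II, had 80.0, 95.1 and 115.7 CPM (the library-scaled read count of edgeR, with TMM factors) in the Setd2SRI/wt libraries, against 98.5, 97.3, 106.9 and 111.3 CPM in the wild-type libraries. The allele is a missense change, so the level of its mRNA does not check the genotype labels. The libraries held 4192021 to 16064644 counts, and the receptor genes took 0.648 to 0.741% of them.

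The expression of maturity markers went against the age on the labels. Myelin genes, which the mouse brain switches on mainly after birth, were abundant in each of the 7 libraries: Mbp, which encodes myelin basic protein, ran from 2458 to 3173 CPM in Setd2SRI/wt and from 2403 to 3602 CPM in wild type. Mog, a late myelin surface protein, ran from 53.1 to 62.1 CPM in Setd2SRI/wt and from 52.6 to 65.8 CPM in wild type. Camk2a, a kinase of mature forebrain synapses, ran from 2436 to 2559 CPM in Setd2SRI/wt and from 1883 to 2073 CPM in wild type. Dcx, a marker of young migrating neurons, lay between 46.3 and 63.8 CPM in Setd2SRI/wt and between 40.5 and 61.9 CPM in wild type, and 5 genes of dividing cells summed to 6.44 to 8.53 CPM in Setd2SRI/wt and to 5.71 to 6.22 CPM in wild type. The subunit composition below is therefore given for brains labelled postnatal day 0, and no age is read from it. Within the cerebellum list, levels differed widely: the Purkinje cell gene Pcp2 had at most 0.46 CPM in Setd2SRI/wt and 1.81 CPM in wild type, and the granule cell subunit gene Gabra6, which is not on that list, was as low, while Cbln1 ran from 13.6 to 25.3 CPM in Setd2SRI/wt and from 23.1 to 38.8 CPM in wild type, and Zic1 from 29.3 to 57.7 CPM in Setd2SRI/wt and from 56.8 to 80.7 CPM in wild type.

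**Figure D1:**
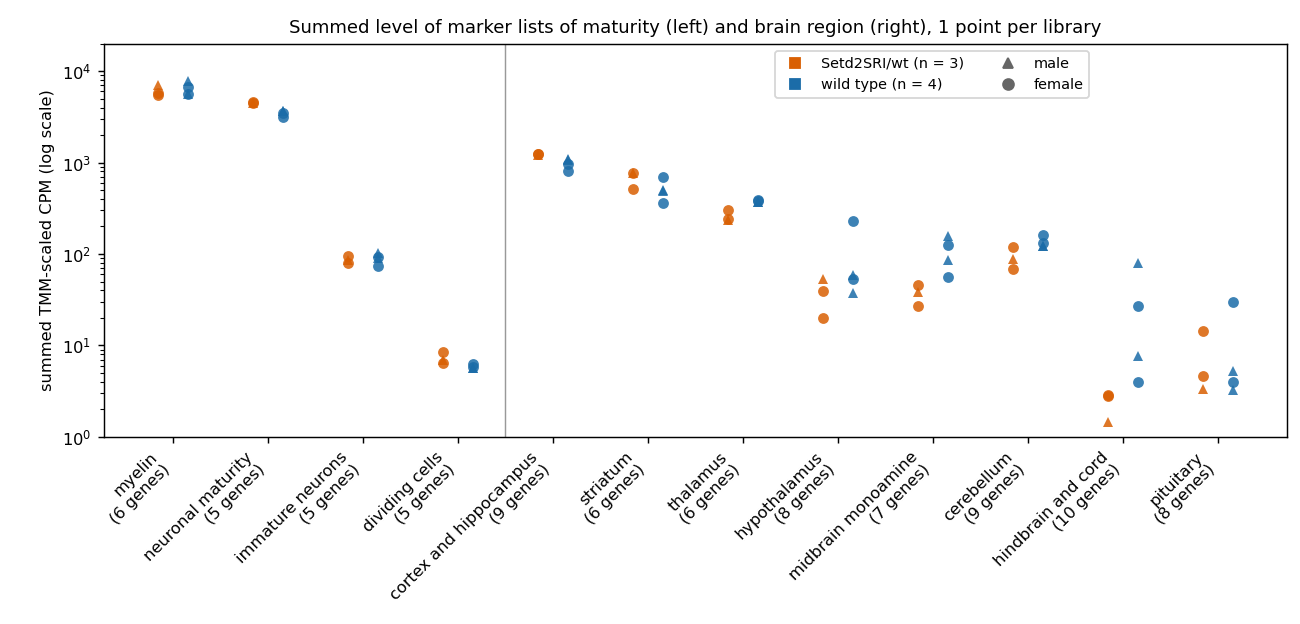
Summed TMM-scaled CPM (log axis) of 4 lists of maturity markers and 8 lists of region markers, 1 point per library, with Setd2SRI/wt in orange left of wild type in blue, triangles for males and circles for females. Myelin markers summed to 5513 to 6983 CPM in Setd2SRI/wt and to 5689 to 7780 CPM in wild type, cortex and hippocampus markers lay higher in every Setd2SRI/wt library (1216 to 1238 CPM) than in any wild-type library (803.1 to 1106 CPM), and the hypothalamus list was highest in wild-type female 2, at 229 CPM.

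Levels were compared between genes per kilobase of annotated exon, and the share of a gene is its part of the summed per-kilobase level of its family in 1 library. AMPA receptor genes had the largest sum among the 9 families, at 194.9 ± 21.04 CPM per kilobase in Setd2SRI/wt (SD, n = 3) and 188.2 ± 7.23 in wild type (SD, n = 4). GABA-B genes summed to 138.1 ± 7.36 in Setd2SRI/wt and 130.8 ± 3.81 in wild type. NMDA receptor genes summed to 81.1 ± 1.35 in Setd2SRI/wt and to 74.7 ± 5.15 in wild type. The 19 GABA-A genes together gave 304.2 ± 27.3 in Setd2SRI/wt and 298.9 ± 19.4 in wild type. The genotypes overlapped in the summed level of every family.

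**Figure D2:**
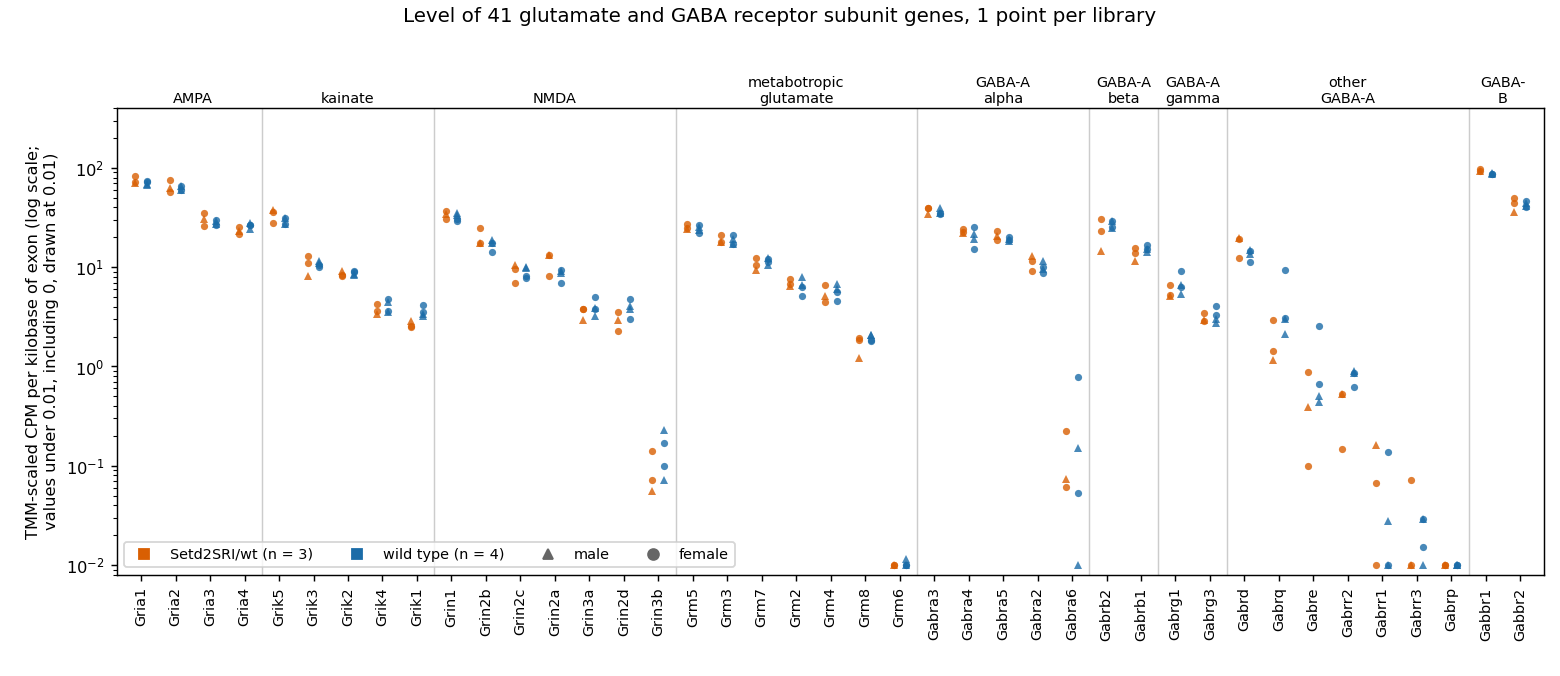
Level of 41 of the 45 genes in TMM-scaled CPM per kilobase of exon (log axis, values under 0.01 drawn at 0.01), ordered within each family by the wild-type mean, 1 point per library, with Setd2SRI/wt in orange left of wild type in blue. Gabbr1, Gria1 and Gria2 lead among them, Grin3b, Grm6, Gabra6, Gabrp, Gabrr1 and Gabrr3 lie at the bottom, and most genes have overlapping groups.

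Gria1 and Gria2 made up most of the AMPA receptor RNA. Gria2 encodes the subunit whose edited form keeps calcium out of the channel, and Gria1 the subunit recruited in synaptic plasticity. Gria1 took 38.8 ± 1.75% of the family in Setd2SRI/wt and 37.6 ± 1.62% in wild type, and Gria2 took 33.4 ± 1.117% in Setd2SRI/wt and 33.3 ± 1.17% in wild type. The order of these 2 genes depends on the length used: per kilobase of the longest coding transcript, Gria2 stood above Gria1 in 7 of 7 libraries, and Gria1 took 30.2% of the family in wild type. Gria3 contributed 15.7 ± 0.80% in Setd2SRI/wt and 15.1 ± 0.57% in wild type. Gria4, which encodes a fast subunit typical of interneurons and thalamic or hindbrain cells, had a share of 12.3, 12.2 and 11.7% in the Setd2SRI/wt libraries, against 13.7, 14.3, 13.8 and 14.3% in the wild-type libraries. Each Setd2SRI/wt library thus lay below each wild-type library in the Gria4 share, while the Gria4 level itself overlapped between genotypes (148.2 ± 12.6 CPM in Setd2SRI/wt and 166.6 ± 8.68 CPM in wild type).

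Kainate receptor RNA was led by Grik5, which encodes a high-affinity subunit that needs a partner from Grik1 to Grik3 to form a channel. Grik5 took 56.7 ± 6.05% of the family in Setd2SRI/wt and 51.8 ± 1.82% in wild type. Grik3 followed with 18.2 ± 4.88% in Setd2SRI/wt and 19.1 ± 1.18% in wild type, and Grik2 with 14.4 ± 0.81% in Setd2SRI/wt and 15.5 ± 1.115% in wild type. The order of these 2 genes also depends on the length used: Grik3 stood above Grik2 in 6 of 7 libraries, the exception being the Setd2SRI/wt male, while per kilobase of the longest coding transcript and in undivided counts Grik2 stood above Grik3 in 6 of 7. Grik4, the other high-affinity subunit gene, had 6.36 ± 1.18% in Setd2SRI/wt and 7.28 ± 0.96% in wild type. The smallest share was that of Grik1, with 4.73, 4.13 and 4.47% in the Setd2SRI/wt libraries and 5.54, 6.20, 6.61 and 6.97% in the wild-type libraries, again without overlap.

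In the NMDA family the obligatory subunit gene Grin1 led per kilobase of exon, with 41.8 ± 4.44% in Setd2SRI/wt and 43.0 ± 1.43% in wild type. Not divided by length, Grin2b was higher, at 498.9 ± 104.7 CPM against 328.9 ± 30.5 CPM for Grin1 in Setd2SRI/wt. The wild-type levels were 424.7 ± 46.8 CPM for Grin2b and 312.2 ± 26.9 CPM for Grin1. Grin2b, the glutamate-binding subunit that prevails around birth, took 24.7 ± 4.97% in Setd2SRI/wt and 22.9 ± 1.84% in wild type. Grin2a, its more mature counterpart, took 14.2 ± 3.45% in Setd2SRI/wt and 11.4 ± 1.29% in wild type. Grin2c, known from cerebellar granule cells and astrocytes, took 11.1 ± 2.32% in Setd2SRI/wt and 11.9 ± 0.82% in wild type, and neither order between it and Grin2a held across libraries, since Grin2c stood above Grin2a in 4 of 7. Grin3a, whose product binds glycine and lowers calcium flow, had 4.31 ± 0.66% in Setd2SRI/wt and 5.39 ± 1.32% in wild type, and Grin2d, a subunit of interneurons and of the diencephalon and brainstem, had 3.63 ± 0.83% in Setd2SRI/wt and 5.25 ± 1.15% in wild type. Grin3b, best known from motor neurons, gave 0.11 ± 0.057% in Setd2SRI/wt and 0.19 ± 0.088% in wild type. Exons of Grin1 share 1307 bases with the antisense gene Grin1os, those of Grin3b 1059 bases with Tmem259 and those of Grin2d 643 bases with Gm45441, all on the opposite strand. Whether the counting used strand is not given in the sources used here, so reads of these genes and their antisense partners cannot be told apart.

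Among metabotropic glutamate receptors, levels are given per kilobase of exon. Grm5, which couples to phospholipase C at the edge of synapses, had 25.4 ± 1.48 CPM per kilobase in Setd2SRI/wt (SD, n = 3) and 24.4 ± 2.00 in wild type (SD, n = 4). Grm3, an inhibitory receptor that astrocytes also carry, had 19.1 ± 1.72 in Setd2SRI/wt and 18.8 ± 1.95 in wild type, and Grm7, a presynaptic inhibitory receptor, had 10.8 ± 1.51 in Setd2SRI/wt and 11.6 ± 0.75 in wild type. Grm2, Grm4 and Grm8, all inhibitory presynaptic receptors, had 6.93 ± 0.54, 5.41 ± 1.05 and 1.67 ± 0.39 CPM per kilobase in Setd2SRI/wt and 6.49 ± 1.19, 5.74 ± 0.92 and 1.96 ± 0.13 in wild type. The genotypes overlapped in each of these levels. Grm6, the receptor of retinal bipolar cells, had 1 count over all 7 libraries, in wild-type male 1.

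**Figure D3:**
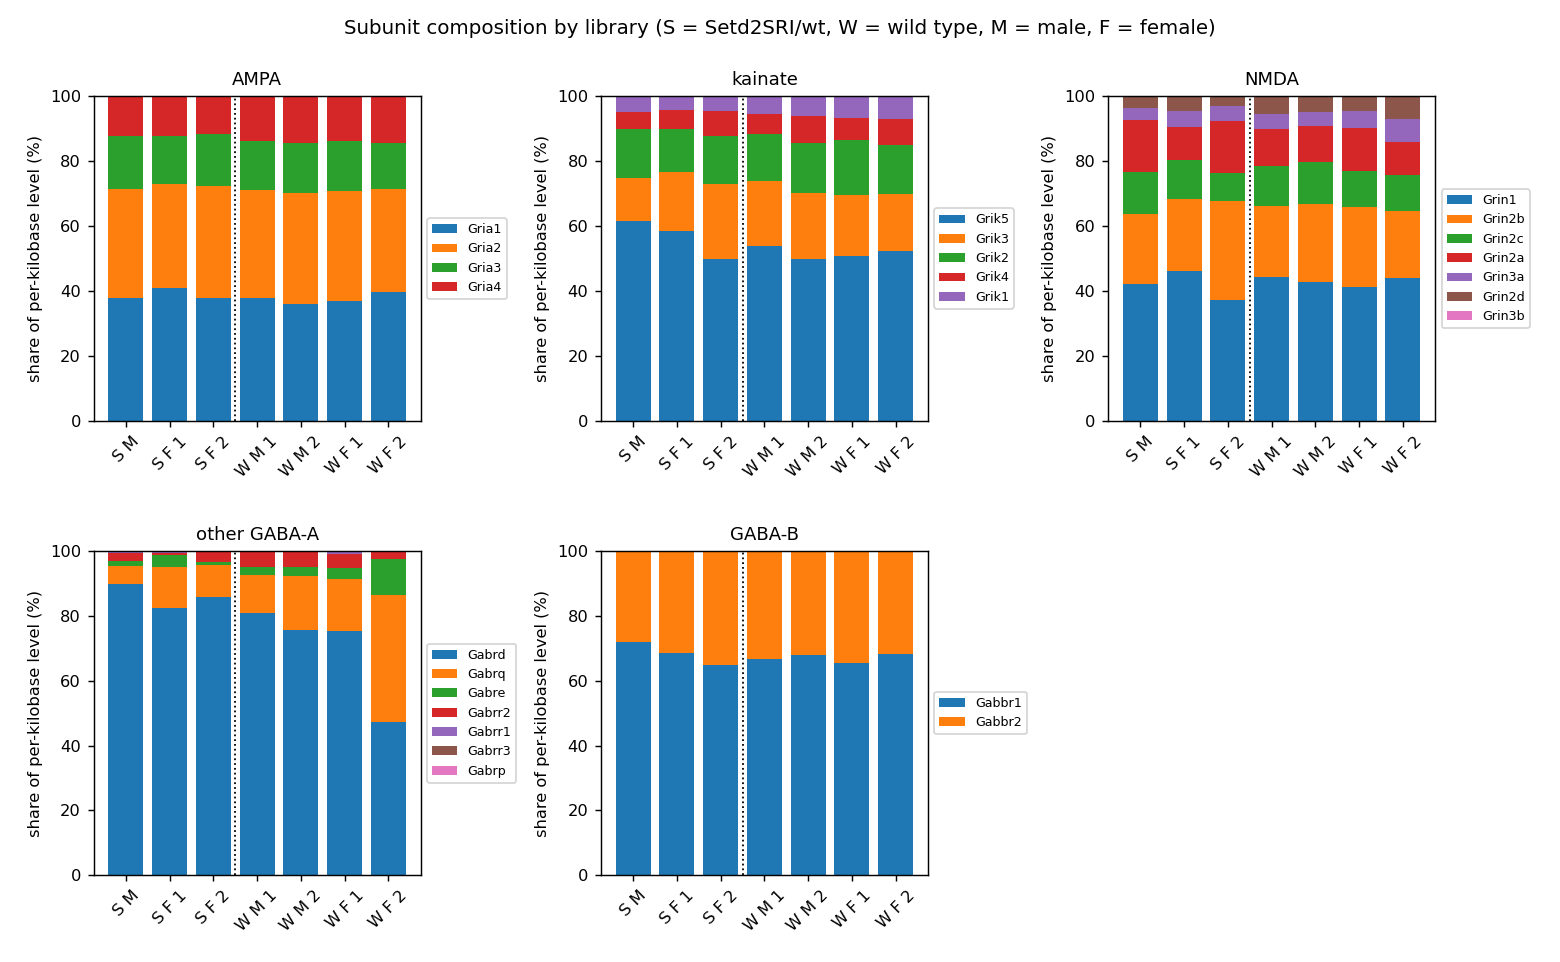
Stacked bars give the share (%) of each gene in the summed per-kilobase level of its family for 5 families, with the 3 Setd2SRI/wt libraries left of the dotted line and the 4 wild-type libraries right of it. The gene with the largest share is the same in all 7 libraries for each of the 5 families, and the Grik1 bar is shorter in each Setd2SRI/wt library (4.13 to 4.73%) than in any wild-type library (5.54 to 6.97%).

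Of the GABA-A alpha genes, Gabra3 and Gabra2 serve early or region-specific synapses, and Gabra5 and Gabra4 serve mostly extrasynaptic receptors. Gabra3 had 37.7 ± 3.02 CPM per kilobase in Setd2SRI/wt and 36.0 ± 2.41 in wild type, and Gabra4 had 22.9 ± 1.08 in Setd2SRI/wt and 20.3 ± 4.12 in wild type. Gabra5 had 21.02 ± 2.30 in Setd2SRI/wt and 19.1 ± 0.76 in wild type, and Gabra2 had 11.2 ± 1.82 in Setd2SRI/wt and 10.004 ± 1.17 in wild type. Gabra4 and Gabra5 did not keep their order in every library (6 of 7). The genotypes overlapped in each of these levels. Gabra6, the alpha gene of cerebellar granule cells, had at most 0.55 CPM in Setd2SRI/wt and 1.94 CPM in wild type.

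Beta subunits form the GABA binding site together with an alpha subunit. Gabrb2 had 145.3 ± 50.6 CPM in Setd2SRI/wt and 173.4 ± 14.8 CPM in wild type. Gabrb1 had 189.7 ± 28.0 CPM in Setd2SRI/wt and 212.9 ± 12.7 CPM in wild type. The level of Gabrb2 was lowest in the Setd2SRI/wt male, at 93.6 CPM. Both levels overlapped between genotypes.

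Gabrg1, a gamma gene of glia and of some subcortical regions, had 5.64 ± 0.86 CPM per kilobase in Setd2SRI/wt and 6.87 ± 1.65 in wild type, and Gabrg3 had 3.08 ± 0.31 in Setd2SRI/wt and 3.31 ± 0.58 in wild type, with overlap in both. The delta gene Gabrd, whose product carries tonic currents with Gabra4 in the forebrain, led the GABA-A genes outside the alpha, beta and gamma classes. Its share among the delta, epsilon, pi, theta and rho genes was 89.9, 82.3 and 85.8% in the Setd2SRI/wt libraries and 80.9, 75.5, 75.4 and 47.2% in the wild-type libraries. The lowest of these, in wild-type female 2, stood beside the highest theta gene (Gabrq) share of 39.3%, and the groups did not overlap. Gabbr1, which holds the GABA binding site of the GABA-B dimer, was the highest of all 45 genes per kilobase in both genotypes, and it gave 68.5 ± 3.57% of the dimer's RNA in Setd2SRI/wt and 67.1 ± 1.33% in wild type. Gabbr2, which couples to the G protein, gave the rest. Of the 25 shares in the 5 families for which shares are given, 3 did not overlap between genotypes, 1 higher (Gabrd) and 2 lower (Gria4 and Grik1) in Setd2SRI/wt, on either length scale. Shares of counts not divided by length gave 2, Gria4 and Grik1. Over all tested genes, 7.91% had levels that did not overlap between genotypes, and no such background was computed for shares. Shares within a family are parts of 1 sum, so they are not independent. The shares are descriptions without a test.

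The rho genes and Gabrp were at the edge of detection. Gabrr1 had 9 counts and Gabrr3 7 counts over all libraries, and Gabrp, known from epithelia outside the brain, had 0 counts, which allows up to 0.0395 CPM over the 7 libraries together (counting error only). Together with Grin3b (34 counts), Gabra6 (48 counts) and Grm6, these are the 6 of the 45 genes that were not tested for genotype because their counts were too low. Gabrr2 was tested on 108 counts in all.

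The genotype comparison asked whether heterozygosity for the SRI allele went with a different level of any subunit. By edgeR's quasi-likelihood test with sex in the model, 0 of the 39 tested receptor genes passed an adjusted p of 0.05, against 0.0174% of all 17260 tested genes (3 genes). The DESeq2 Wald test and limma-voom also called 0 receptor genes. With no filter on low counts edgeR called 3, Gabrq, Gabre and Grin2a, among 331 genes in all. At an unadjusted p under 0.05 there were 8 of 39, 2 higher and 6 lower in Setd2SRI/wt, and over all tested genes these shares were 8.95% in either direction, 3.84% higher and 5.11% lower. All 3 Setd2SRI/wt libraries lay above all 4 wild-type libraries in 1 of the 39 genes, Gabbr1, and below them in 2, Grik1 and Gabrr2, against backgrounds of 3.83% and 4.08% (7.91% for either direction). The median log2 change was -0.01 over the 39 genes and 0.01 over all genes. No receptor gene therefore rose or fell by the test, and the values below are given for the genes with the smallest p-values.

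**Figure D4:**
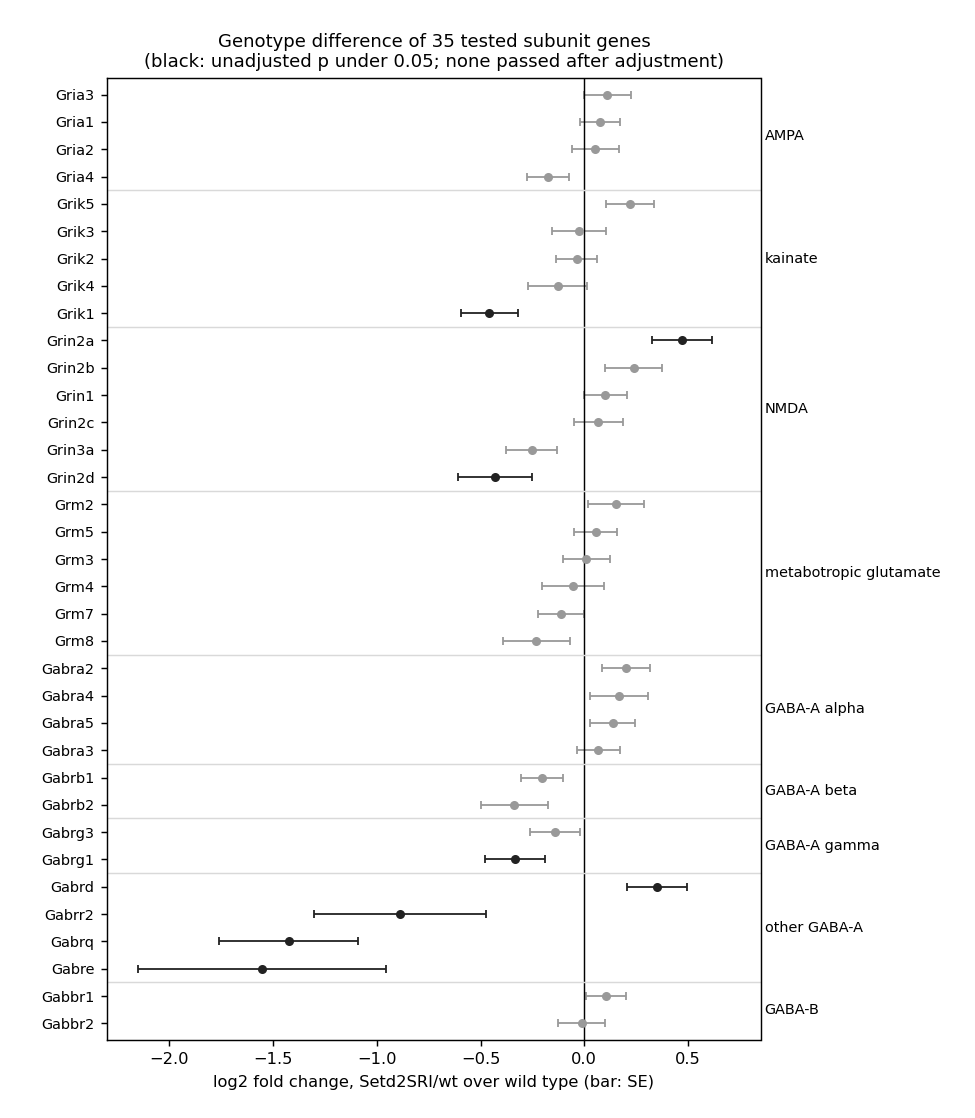
Log2 change of Setd2SRI/wt over wild type for 35 of the 39 tested genes, grouped by family, with bars for the SE and black points for an unadjusted p under 0.05. Grin2a is the highest of them at 0.47, and Gabrq and Gabre stand apart at -1.43 and -1.55.

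Among glutamate receptors, Grin2a had 237.6, 146.3 and 239.3 CPM in the Setd2SRI/wt male, female 1 and female 2, against 163.4, 156.3, 167.6 and 124.3 CPM in wild-type male 1, male 2, female 1 and female 2. The Setd2SRI/wt male and female 2 were higher than every wild-type library, and Setd2SRI/wt female 1 lay inside the wild-type range. The log2 change was 0.47 (SE 0.15, adjusted p = 0.288 in edgeR), and without Setd2SRI/wt female 2 it was 0.29 (adjusted p = 0.440 in edgeR). Grin2a lies on chromosome 16 from 9567898 to 9995560 (mm10, minus strand), and its exons overlap no other annotated gene.

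Grik1, a kainate receptor gene of many interneurons, had 19.4, 17.2 and 16.7 CPM in the Setd2SRI/wt libraries, against 21.5, 22.6, 23.9 and 27.9 CPM in the wild-type libraries, in the same order. It was the 1 glutamate receptor gene whose groups did not overlap in level, with a log2 change of -0.46 (SE 0.14, adjusted p = 0.269 in edgeR). Grin2d had 19.8, 23.6 and 15.3 CPM in Setd2SRI/wt, against 27.2, 25.2, 19.8 and 31.8 CPM in wild type. Its groups overlapped at wild-type female 1, and its log2 change of -0.43 ± 0.18 (SE) had an adjusted p of 0.478 in edgeR. It came to -0.22 without wild-type female 2 and to -0.27 without Setd2SRI/wt female 2. Grik5 (log2 change 0.22, adjusted p = 0.634 in edgeR) completed the 2 glutamate receptor genes named per direction, and its change was 0.12 without the Setd2SRI/wt male and 0.14 without Setd2SRI/wt female 1. The tested AMPA and metabotropic genes had log2 changes between -0.23 and 0.15, with no unadjusted p under 0.05.

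**Figure D5:**
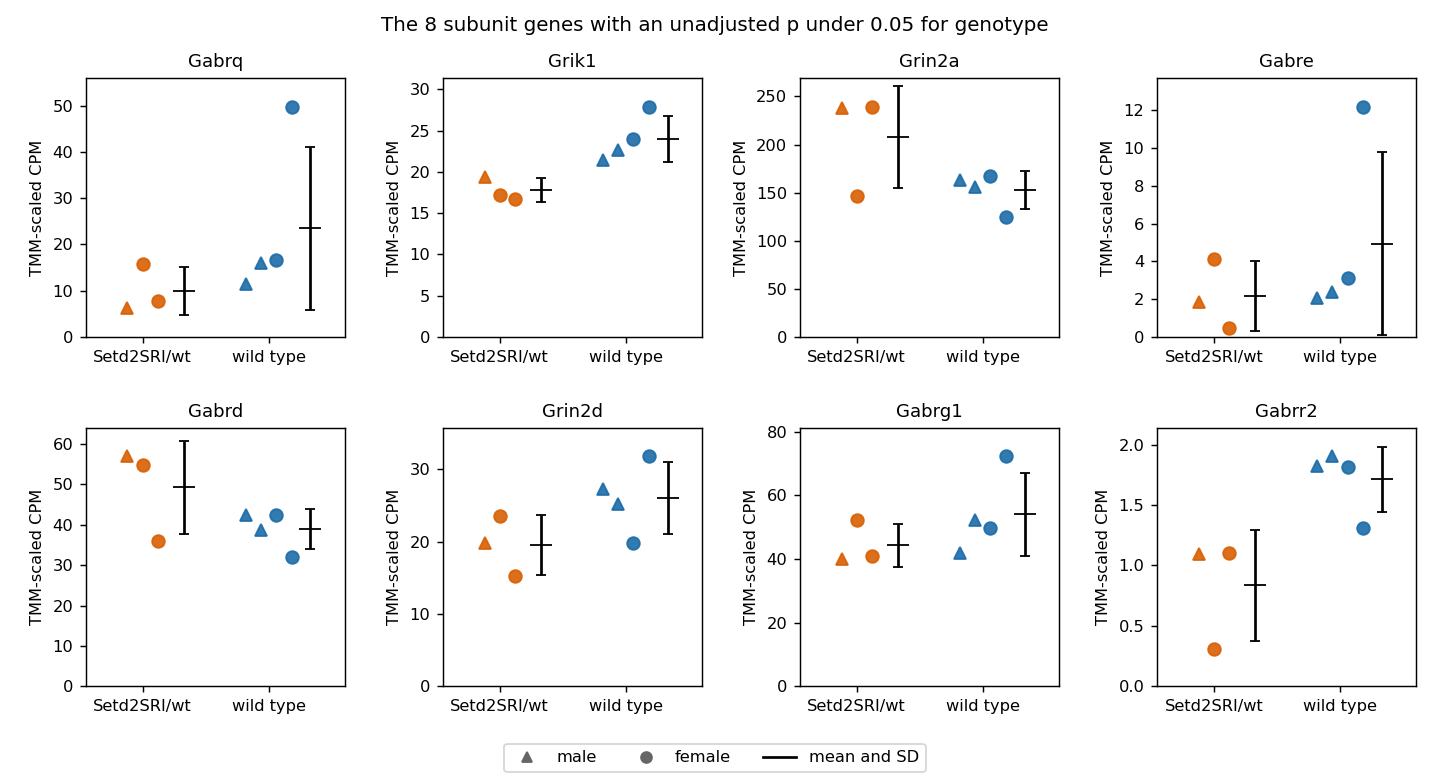
TMM-scaled CPM of the 8 receptor genes with an unadjusted p under 0.05, 1 point per library (triangles for males, circles for females), with mean and SD beside each group and Setd2SRI/wt left of wild type. Wild-type female 2 is the highest library for Gabrq (49.8 CPM), Gabre (12.2 CPM), Grik1, Grin2d and Gabrg1, and the lowest wild-type library for Grin2a, Gabrd and Gabrr2.

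Of the GABA receptor genes with negative fold changes, the theta and epsilon genes had the smallest p-values, and their products are known from the hypothalamus and monoaminergic brainstem nuclei. Gabrq had 6.23, 15.8 and 7.74 CPM in the Setd2SRI/wt libraries, against 11.5, 15.9, 16.6 and 49.8 CPM in the wild-type libraries. Setd2SRI/wt female 1 lay among the wild-type values, and wild-type female 2 stood far above the other 6 libraries. In edgeR the log2 change was -1.43 (SE 0.34, adjusted p = 0.166), and without wild-type female 2 it was -0.75 (adjusted p = 0.488 in edgeR). Without wild-type female 1 it passed the threshold, at -1.79 (adjusted p = 0.00829 in edgeR).

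Gabre, also highest in wild-type female 2, had 1.83, 4.14 and 0.47 CPM in Setd2SRI/wt, against 2.07, 2.38, 3.12 and 12.2 CPM in wild type. Again Setd2SRI/wt female 1 lay inside the wild-type range, and wild-type female 2 stood apart. Its log2 change of -1.55 ± 0.60 (SE, adjusted p = 0.421 in edgeR) came to -0.53 without wild-type female 2. It was -0.68 when Setd2SRI/wt female 2 was left out, and -2.42 when female 1 of that genotype was. Gabrg1 had 39.9, 52.1 and 41.0 CPM in Setd2SRI/wt and 41.8, 52.3, 49.7 and 72.3 CPM in wild type, and its log2 change of -0.33 ± 0.14 (SE, adjusted p = 0.497 in edgeR) came to -0.15 without wild-type female 2. Gabrr2, a rho gene near its detection limit, had 1.10, 0.31 and 1.11 CPM in Setd2SRI/wt, against 1.82, 1.90, 1.81 and 1.31 CPM in wild type. These groups did not overlap, and the log2 change was -0.89 ± 0.42 (SE, adjusted p = 0.557 in edgeR), which became -0.59 when Setd2SRI/wt female 1 was left out, and -1.36 when female 2 of that genotype was.

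Gabrd was the GABA receptor gene with the smallest p-value among those higher in Setd2SRI/wt. It had 57.0, 54.9 and 36.0 CPM in the Setd2SRI/wt libraries, against 42.5, 38.8, 42.3 and 32.1 CPM in the wild-type libraries, with Setd2SRI/wt female 2 inside the wild-type range. The log2 change was 0.35 ± 0.15 (SE, adjusted p = 0.470 in edgeR), and leaving out Setd2SRI/wt female 1 gave 0.21, while leaving out both libraries richest in pituitary transcripts gave 0.14. Gabra2 came next, at 0.20 ± 0.11 (SE, adjusted p = 0.672 in edgeR), or 0.12 without Setd2SRI/wt female 2. Gabbr1 varied little between libraries: it had 724.7, 752.9 and 720.2 CPM in Setd2SRI/wt, against 695.6, 680.7, 678.6 and 669.6 CPM in wild type, a log2 change of 0.11 ± 0.10 (SE, adjusted p = 0.839 in edgeR).

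The genes of GABA-A receptors lie in clusters, and 16 of the 19 fall into 5 of them in mm10. The cluster on chromosome 5 (70751047 to 72149037) with Gabrg1, Gabra2, Gabra4 and Gabrb1 summed to 52.6 CPM per kilobase in wild type. On the X chromosome, Gabre, Gabra3 and Gabrq lie within 586.6 kb (72255999 to 72842602). Their fold changes differed in sign: Gabra3, which lies between Gabre and Gabrq, had a log2 change of 0.07 ± 0.10 (SE, adjusted p = 0.922 in edgeR), and it had 134.1, 154.6 and 154.6 CPM in Setd2SRI/wt and 138.6, 154.9, 137.9 and 133.2 CPM in wild type, with no high value in wild-type female 2.

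The sequences just upstream of Gabrq and Gabre are shown because both genes were highest in wild-type female 2 and, among the Setd2SRI/wt libraries, in female 1, and that of Gabrg1, another gene with this pattern, is shown beside them. They are the 250 bases before the annotated start on GRCm38.p6, from RefSeq, printed 5′ to 3′ on the gene's own strand, and capitals mark each GC box, the hexamer GGGCGG or its reverse complement CCGCCC. Gabrq is at chrX:72824928-72825177 on the plus strand, Gabre at chrX:72274722-72274971 on the minus strand and Gabrg1 at chr5:70842618-70842867 on the minus strand. In GENCODE release M21 the Gabre gene reaches 72274803, so by that annotation part of its window lies inside the gene.
Gabrq: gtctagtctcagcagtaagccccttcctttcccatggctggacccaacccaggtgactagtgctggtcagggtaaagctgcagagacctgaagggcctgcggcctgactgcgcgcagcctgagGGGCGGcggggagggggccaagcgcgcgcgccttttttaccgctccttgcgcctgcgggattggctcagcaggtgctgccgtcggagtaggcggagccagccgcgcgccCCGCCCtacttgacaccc
Gabre: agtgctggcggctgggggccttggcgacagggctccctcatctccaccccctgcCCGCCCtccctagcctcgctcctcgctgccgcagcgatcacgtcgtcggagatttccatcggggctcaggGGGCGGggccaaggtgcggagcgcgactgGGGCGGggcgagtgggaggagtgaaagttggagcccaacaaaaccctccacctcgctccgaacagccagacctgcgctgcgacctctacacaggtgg
Gabrg1: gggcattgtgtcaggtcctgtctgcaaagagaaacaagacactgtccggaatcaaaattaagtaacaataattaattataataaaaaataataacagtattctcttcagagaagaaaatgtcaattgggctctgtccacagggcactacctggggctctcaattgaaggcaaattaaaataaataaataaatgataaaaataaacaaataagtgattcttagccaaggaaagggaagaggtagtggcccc
The Gabrq window holds 2 GC boxes and 19 CpG dinucleotides at 67.2% G+C, the Gabre window 3 GC boxes and 21 CpG at 68.8%, and the Gabrg1 window no GC box and 1 CpG at 35.6%. Of the 45 genes, 32 had promoter entries, with 39 windows in all. A GC box on either strand was found in 46.2% of these windows, against 32.7% of all 32851 windows of the same length, and the median window held 9 CpG at 58.8% G+C, against 6 CpG at 52.4% over all windows. The TATA hexamer TATAAA was found in 10.3% of receptor windows and 12.4% of all windows, and the cAMP response element TGACGTCA in 0% of receptor windows and 1.546% of all windows. Both strands were searched, and a match is a description of the sequence only. No sequence is shown for Grin2a, Grik1 and Gabrd.

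Ratios of paired subunit genes within a library do not depend on library scaling. Grin2a over Grin2b, per kilobase, was 0.75, 0.46 and 0.53 in the Setd2SRI/wt libraries, against 0.52, 0.47, 0.53 and 0.48 in the wild-type libraries. The Setd2SRI/wt male was highest and the other 6 libraries lay close together, and an exact two-sided permutation test over the 35 splits gave p = 0.4. Grin2d over Grin2b was 0.15 ± 0.056 in Setd2SRI/wt and 0.23 ± 0.070 in wild type (exact permutation p = 0.114). Gria2 over Gria1 (exact permutation p = 0.571) and Gabbr2 over Gabbr1 (exact permutation p = 0.543) also overlapped between genotypes. Adjusted over the 6 ratios tested, each of these 4 p-values was 0.6, and the smallest p this design allows is 0.0286.

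Partners that carry, anchor or tune the receptors were described as a list, chosen with earlier results of these data known. Of 30 glutamate receptor partners, all tested, 0 passed the adjusted threshold in edgeR, 6 were higher and 1 lower at an unadjusted p under 0.05 (3.84% and 5.11% of all tested genes), and the median log2 change was 0.15, against 0.01 over all genes. Cacng5, an auxiliary subunit of AMPA receptors, had 12.8, 19.3 and 11.4 CPM in Setd2SRI/wt, against 24.0, 25.5, 17.5 and 18.9 CPM in wild type, where the groups overlapped (log2 change -0.51 ± 0.19 SE, adjusted p = 0.403 in edgeR). Of 21 GABA receptor partners listed, 20 were tested (Insyn2a was not analysed here). Among these, 0 passed in edgeR, 0 were higher and 2 lower at an unadjusted p under 0.05, against 3.84% higher and 5.11% lower over all tested genes, with a median of 0.03.

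Those 2 were Lhfpl3 and Kctd16. Lhfpl3 belongs to the family of Lhfpl4, which helps place GABA-A receptors at synapses, and it had 34.6, 34.3 and 31.6 CPM in Setd2SRI/wt, against 36.0, 45.9, 44.8 and 40.3 CPM in wild type (log2 change -0.32 ± 0.12 SE, adjusted p = 0.411 in edgeR). Kctd16, an auxiliary subunit of GABA-B receptors, had 10.8, 20.7 and 22.0 CPM in Setd2SRI/wt, against 22.4, 26.6, 23.6 and 22.8 CPM in wild type (log2 change -0.44 ± 0.18 SE, adjusted p = 0.450 in edgeR). For both, every Setd2SRI/wt library lay below every wild-type library, though for Kctd16 the closest values were 22.0 and 22.4 CPM. This held for 3 of the 20 tested GABA receptor partners, and 0 lay wholly above. Of the 30 glutamate receptor partners, 4 lay wholly above and 0 wholly below. Over all tested genes, 3.83% lay wholly above and 4.08% wholly below. Slc12a5, the transporter that pumps chloride out of mature neurons and so makes GABA inhibitory, had 543.7 ± 31.9 CPM in Setd2SRI/wt and 560.5 ± 25.1 CPM in wild type (adjusted p = 0.949 in edgeR). Slc12a2, the transporter that loads chloride into young neurons, had 133.5 ± 12.6 CPM in Setd2SRI/wt and 150.1 ± 15.2 CPM in wild type (adjusted p = 0.709 in edgeR).

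Summed levels of 5 of the 8 region lists did not overlap between genotypes (cortex and hippocampus, thalamus, midbrain monoamine, cerebellum, and hindbrain and cord), while those of striatum, hypothalamus and pituitary overlapped. Over all tested genes, 7.91% had single-gene levels that did not overlap, and no such background was computed for summed lists. Of the single genes on these lists, 1 passed the adjusted threshold in edgeR, against 0.0174% of all tested genes. The region lists were chosen with earlier results of these data known, so the counts below cannot serve as independent support. In bulk samples, fewer cells of a type and less RNA per cell cannot be told apart. Whether all samples held the same parts of the brain was not tested. The 9 markers of cortex and hippocampus summed to 1216 to 1238 CPM in Setd2SRI/wt and to 803.1 to 1106 CPM in wild type, and all 9 had positive fold changes, 8 of them at an unadjusted p under 0.05 (against 3.84% of all genes higher). The 6 striatum markers summed to 507.9 to 769.8 CPM in Setd2SRI/wt and to 357.6 to 702.8 CPM in wild type, all 6 with positive fold changes and 3 at an unadjusted p under 0.05. The 6 thalamus markers summed to 236.5 to 302.6 CPM in Setd2SRI/wt and to 366.4 to 394.4 CPM in wild type. All 6 had negative fold changes, 5 of them at an unadjusted p under 0.05 (against 5.11% of all genes lower), and Slc17a6 was the 1 of them that passed in edgeR. The 8 hypothalamus markers summed to 19.8 to 53.5 CPM in Setd2SRI/wt and to 37.4 to 229 CPM in wild type, with the highest sum in wild-type female 2, where Gabrq and Gabre were also highest. All 8 of these markers had negative fold changes, 6 of them at an unadjusted p under 0.05. The 7 midbrain monoamine markers ran from 26.8 to 46.2 CPM in Setd2SRI/wt and from 56.6 to 157 CPM in wild type, all 7 with negative fold changes and 6 at an unadjusted p under 0.05. The 9 cerebellum markers ran from 68.4 to 119.6 CPM in Setd2SRI/wt and from 121.7 to 160.9 CPM in wild type. Of these 9, 8 were tested, all with negative fold changes and 6 at an unadjusted p under 0.05. Hindbrain and cord markers ran from 1.47 to 2.84 CPM in Setd2SRI/wt. In wild-type male 1, male 2, female 1 and female 2 they summed to 80.1, 7.61, 3.94 and 26.7 CPM. The Hox genes on this list were all highest in wild-type male 1, and only 2 of its 10 genes were tested. Pituitary markers were highest in Setd2SRI/wt female 1 (14.3 CPM) and wild-type female 2 (29.8 CPM). The list of neuronal maturity, chosen after seeing the data, summed to 4524 to 4549 CPM in Setd2SRI/wt and to 3155 to 3689 CPM in wild type, without overlap. Of its 5 genes, 0 passed the adjusted threshold in edgeR, and at an unadjusted p under 0.05 Camk2a, Nrgn and Slc17a7 were higher and Nefh was lower in Setd2SRI/wt. The fifth gene, Pvalb, had a log2 change of 0.04. Slc17a7 is also on the cortex and hippocampus list, so these 2 sums are not separate observations. The part of these markers in the levels and shares of the receptor genes was not tested. The 2 libraries richest in pituitary transcripts were Setd2SRI/wt female 1 and wild-type female 2. Without them, an alternative chosen after seeing the data, edgeR called Gabrq lower (log2 change -1.09, adjusted p = 0.0382) and Grin2a higher (0.54, adjusted p = 0.0254) in Setd2SRI/wt. For both genes, Setd2SRI/wt female 1 was the only Setd2SRI/wt library inside the wild-type range, so this choice left out the overlapping library.

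Sex was the other labelled condition. Of the 39 receptor genes, 0 passed for sex in edgeR and 0 in DESeq2, against 0.0463% of all genes, and 5 had an unadjusted p under 0.05, 1 higher and 4 lower in males, against 4.72% of all genes. Gabrq had the smallest p, with a log2 change of male over female of -1.20 ± 0.34 (SE, adjusted p = 0.834 in edgeR), and it passed only without wild-type female 1 among the 7 libraries left out in turn. Grin2c was the 1 gene higher in males (0.33 ± 0.12 SE, adjusted p = 0.994 in edgeR). In a fit with a genotype-by-sex term, 40 receptor genes were tested and 0 passed in edgeR, as did 0 of all 18269 genes, and 3 had an unadjusted p under 0.05, against 3.46% of all genes. They were Gabrb2, Grik3 and Grm8, each lowest in the single Setd2SRI/wt male (93.6, 73.3 and 12.1 CPM), and all 3 had an adjusted p of 0.998 in edgeR.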

How the data were processed

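Brain RNA of 7 mice was sequenced, and the authors deposited raw counts per gene for 55536 Ensembl genes. Per the submitters' processing notes, FastQC, Trim Galore, HISAT2, featureCounts and edgeR were used with mm10, and neither versions nor the strand setting is given in the sources used here. The name of the Setd2SRI/wt male's column differs slightly from its label and was matched as the only male of that genotype. Identifiers matched GENCODE mouse release M21 (55536 of 55536), which supplied exon lengths, since the table was used without lengths of its own, and shares between genes rest on them. Exons of 18 receptor genes share bases with another gene.

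After filterByExpr and TMM scaling, genotype and sex were tested (two-sided) with the quasi-likelihood method of edgeR 4.0.16 (R 4.3.3), with p-values adjusted by Benjamini-Hochberg over 17260 genes and called under 0.05. Their interaction had a model of its own. DESeq2 1.42.0 and limma-voom (limma 3.58.1) were alternatives, beside other scalings and filters, no sex term, females only, thinning and leaving out each library. The SE was derived from the log2 change and its F statistic. Values of some members and partners are not reported here, although the counts over the lists include them. Scripts were tested on simulated data. Libraries ranged from 4192021 to 16064644 counts. The members, partner and marker lists and alternatives were chosen with earlier results of these data known, and the maturity lists after seeing the data. Genes named for genotype were, per transmitter and direction, up to 5 with an unadjusted p under 0.05, filled to 2.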

Additional observations from a re-analysis of the deposited data

Results flagged for a closer look

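In 3 of the 39 tested receptor genes, 1 of the 4 wild-type libraries lay far from the other 3, and in each it was wild-type female 2. The check was run 45 times, on the tested genes and on 6 ratios. Chance alone gives such a gap in about 1 in 20 groups of 4, so some of the flags can come from chance. Gabrq had 49.8 CPM and Gabre 12.2 CPM in that library, both higher than in the other wild-type libraries. Gabrr2 had 1.31 CPM there on 20 counts. That was lower than the 1.82, 1.90 and 1.81 CPM of wild-type male 1, male 2 and female 1, which rest on 29, 8 and 29 counts. Wild-type female 2 had the highest sums of hypothalamus markers (229 CPM) and pituitary markers (29.8 CPM). The part of these markers in the flagged values was not tested.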

How the results depend on the processing

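Receptor genes passed the adjusted threshold for genotype under 4 of 19 alternatives: 3 genes with no filter on low counts (Gabrq, Gabre and Grin2a), 2 in females with the replicate block (Gabrq and Gabre), 1 without wild-type female 1 (Gabrq, log2 change -1.79, adjusted p = 0.00829 in edgeR) and 2 without the libraries with the most pituitary transcripts. Over all genes, the number called for genotype ran from 0 to 331 across these 19 alternatives (331 with no filter). It ran from 0 to 110 over the libraries left out. The cause of the receptor calls was not tested. The same-numbered females had a correlation of deviations of -0.06. With 2 females per genotype, this value cannot exclude an effect that same-numbered females share. The labels give the replicate number no further meaning. At an unadjusted p under 0.05, 10 genes were lower with total counts and with no filter and 3 in females only without the block, and 1 was higher with limma-voom, with no sex term and in females with or without the block. Leaving out each library gave 1 to 4 higher and 3 to 7 lower. The higher count was 1 without the Setd2SRI/wt male, wild-type male 1 or wild-type male 2, and 4 without wild-type female 1, and the lower count was 3 without the Setd2SRI/wt male. Over the libraries left out, 0 to 1 receptor genes were called for genotype and 0 to 1 for sex. The shares of all genes at an unadjusted p are not given for these alternatives.

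Median log2 changes moved as follows. The other GABA-A genes gave -0.59 with no filter. In females the beta genes gave -0.024 without and -0.035 with the block, and the GABA-B genes 0.13 in both. Without the pituitary libraries the NMDA genes gave -0.014. Over the libraries left out, the medians ran from -0.037 to 0.13 for AMPA, -0.16 to -0.023 for kainate, -0.021 to 0.11 for NMDA, -0.28 to -0.023 for beta, -0.00078 to 0.13 for GABA-B and -1.26 to -0.64 for the other GABA-A genes. Gabbr2 changed sign at 0.022 with no sex term and 0.14 in females with and without the block, and ran from -0.10 to 0.14 over the libraries left out. Gria2 ran from -0.065 to 0.14.

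Shares in wild type depended on length. Without dividing by length, Gria1 took 23.2%, Grik5 36.6%, Grin1 30.9% and Gabbr1 70.3%. On that scale Grin2b, at 42.0%, stood above Grin1. Per kilobase of the longest coding transcript, Gria1 took 30.2%, Grin1 59.9% and Gabbr1 72.2%. The log2 ratio differences changed sign in females for Grin2a/Grin2b (-0.025) and Gabbr2/Gabbr1 (0.0096). Over the libraries left out they ran from -0.00032 to 0.35 for Grin2a/Grin2b, -0.093 to 0.022 for Gria2/Gria1 and -0.21 to 0.025 for Gabbr2/Gabbr1. With 3 and 4 libraries, a difference that misses the threshold is not shown to be absent.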
